A study of Homo sapiens with 12 samples.

Results

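The genes described here encode the proteins of the cytosolic ribosome. They were chosen by a rule on names that uses no measured value, though it was set with earlier results of these data known. The rule takes protein-coding genes with an RPL or RPS symbol, the 3 P stalk genes RPLP0, RPLP1 and RPLP2, and RPSA. The rule found 84 of the 58735 genes in the count table, which holds 19951 protein-coding genes. Of these, 52 belong to the large subunit and 32 to the small subunit, and 7 are paralogs of other members, namely RPL3L, RPL7L1, RPL10L, RPL22L1, RPL26L1, RPL39L and RPS27L. RNA was sequenced from MDA-MB-231, an established human breast cancer line, in 12 libraries that form 4 groups of 3. The groups are cells with guide RNAs against UFM1 (sgUFM1), cells with guide RNAs against UFL1 (sgUFL1), and controls for each guide (sgCtrl), and the series' design text calls the guided cells knockouts. The count and FPKM tables hold the same libraries but exchange the names of a pair of groups. Below, set 1 means the libraries that are sgUFL1 by the count table but controls for sgUFM1 by the FPKM table. Set 2 means those that are controls for sgUFM1 by the count table but sgUFL1 by the FPKM table. The names of sgUFM1 and of the controls for sgUFL1 are alike in both tables. Under the count table's names the guides are compared with their controls as sgUFM1 against set 2 and set 1 against the controls for sgUFL1, and under the FPKM table's names as sgUFM1 against set 1 and set 2 against the controls for sgUFL1. The labels do not say whether a group is 1 clone or a pool, whether it was selected, or whether its replicates were separate cultures, so each p-value reflects only how far these libraries lay apart, and that scatter may be technical.

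Ribosomal proteins assemble with ribosomal RNA into a small subunit, which reads the mRNA, and a large subunit, which joins amino acids and passes the chain out through a tunnel. Their mRNAs share a tract of pyrimidines at the cap, the terminal oligopyrimidine or TOP motif, through which mTORC1 signalling sets their translation together. UFM1 is a ubiquitin-like modifier and UFL1 is its ligase, and their best known target is RPL26, which sits beside the exit tunnel of ribosomes docked at the endoplasmic reticulum. The libraries measure the mRNA of RPL26 and not its modification.

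The TOP motif is the regulatory sequence that most members hold in common, and as examples the starts of RPL26, of RPS21, RPL35 and RPS28, which fell in sgUFM1 against set 2, and of 3 paralogs are shown. Each line gives 15 bases before and 15 bases from the RefSeq transcription start (GRCh38.p14), with the pyrimidine run at or next to the start in capitals, a C followed by at least 4 letters that are each C or T.
RPL26 (chr17:8383179-8383208, minus strand): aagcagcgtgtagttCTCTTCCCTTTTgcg
RPS21 (chr20:62387088-62387117, plus strand): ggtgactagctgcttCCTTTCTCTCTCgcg
RPL35 (chr9:124861943-124861972, minus strand): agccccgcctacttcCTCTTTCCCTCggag
RPS28 (chr19:8321481-8321510, plus strand): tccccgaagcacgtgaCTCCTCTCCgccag
RPL22L1 (chr3:170870181-170870210, minus strand): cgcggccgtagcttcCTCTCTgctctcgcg
RPL7L1 (chr6:42879601-42879630, plus strand): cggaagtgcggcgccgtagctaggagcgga
RPL26L1 (chr5:172958714-172958743, plus strand): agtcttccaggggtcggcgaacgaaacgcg
RPL26 and RPS21 carry runs of 12 bases from the first base on, RPL35 has 11, RPL22L1 has 6, and the run of RPS28 begins 1 base after the annotated start. No such run lies within 5 bases of the starts of RPL7L1 or RPL26L1. Promoters were given for 67 of the 84 members. A run began exactly at a start in 47 of these 67 members (70.1%), and within 5 bases of one in 54 (80.6%), against 5.14% and 25.2% of the 27305 genes with a promoter in the same table. It began at the start in 29 of 42 members of the large subunit (69.0%) and in 18 of 25 of the small subunit (72.0%). The runs were read on the transcribed strand, and a match in these letters describes the sequence and not its use.

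The libraries held 15342793 to 18033331 counts. The markers of the line were present in every library, with VIM at 786 to 1051 CPM (counts scaled to the library total) and AXL at 681 to 1010 CPM, while the receptor genes ESR1 and PGR, which the line is known to lack, did not exceed 0.759 and 1.18 CPM. CD3E had 0 counts in all 12 libraries, PTPRC, DCN, LUM, CDH5 and VWF stayed below 1 CPM, and PECAM1 lay between 25.6 and 29.3 CPM in sgUFM1 libraries and between 5.98 and 11.1 CPM in the others. The other 4 markers of leukocytes, fibroblasts and endothelium, CD14, PDGFRB, COL1A1 and KDR, lay between 2.00 and 16.9 CPM, and the part of such cells in the results was not tested. UFM1 mRNA was lowest in sgUFM1 libraries, at 37.5 to 40.15 CPM, against 51.75 to 72.6 CPM in all others. UFL1 mRNA was lowest in set 2, at 11.2 to 13.0 CPM, against 17.4 to 18.6 CPM in set 1 and 20.6 to 30.9 CPM in the controls for sgUFL1. By the edgeR quasi-likelihood test, set 2 differed from those controls in UFL1 by a log2 fold change of -1.02 (SE 0.17, adjusted p = 0.00166), and set 1 by -0.45 (SE 0.17, adjusted p = 0.13). With offsets that take out each library's trend with GC content and length, these values were -0.45 (adjusted p = 0.062) and -0.07 (adjusted p = 0.932), and neither passed. By the same test sgUFM1 lay above set 2 in UFL1 by 0.90 (adjusted p = 5.61e-06), and by 0.615 with the offsets (adjusted p = 4.87e-05). Set 1 lay above set 2 by 0.53 (adjusted p = 0.0524), and by 0.37 with the offsets (adjusted p = 0.108). A group cannot be assigned from such values, so both namings are kept.

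**Figure D1:**
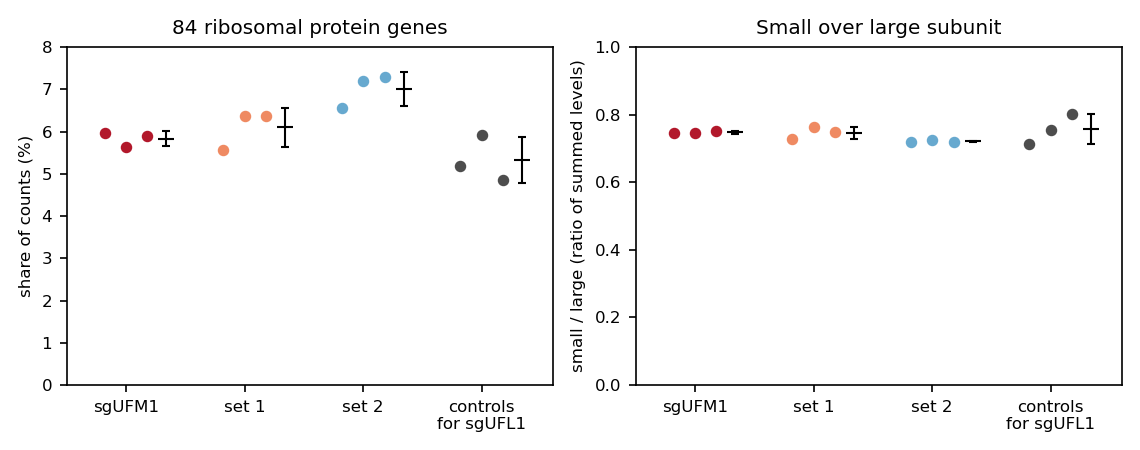
Share of each library's counts that fell in the 84 ribosomal protein genes (left, percent) and ratio of the summed small-subunit to the summed large-subunit level on the FPKM scale (right), with points for libraries and bars for mean and SD of 3. Set 2 lay highest in the share, at 6.55 to 7.29%, and the ratio stayed between 0.712 and 0.801 in all 12 libraries.

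The members together took 5.97%, 5.62% and 5.89% of counts in sgUFM1 libraries, 5.56%, 6.37% and 6.36% in set 1, 6.55%, 7.20% and 7.29% in set 2, and 5.19%, 5.92% and 4.86% in the controls for sgUFL1. Every set 2 library lay above every library of the other 3 groups. sgUFM1 fell below set 2 by 1.18 percentage points, with means of 5.83 ± 0.18% and 7.01 ± 0.40% (SD, n = 3 each, exact permutation p = 0.1, adjusted over 6 pairs 0.2). Set 2 lay above the controls for sgUFL1 by 1.68 points, with means of 7.01 ± 0.40% and 5.33 ± 0.54% (SD, n = 3 each, exact permutation p = 0.1, adjusted 0.2). With 3 against 3 libraries 0.1 is the smallest two-sided p that an exact test can give, so no such difference could pass 0.05. The ranges of sgUFM1 and set 1 overlapped, with a difference of -0.27 points (exact permutation p = 0.4). In bulk RNA a lower share cannot be told apart from more RNA of other genes, and fewer cells of a kind cannot be told apart from less RNA per cell.

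Level per length was compared as CPM per kilobase of coding sequence, averaged over the 12 libraries. RPL41, which encodes the smallest ribosomal protein in 75 coding bases, stood first at 9275 ± 1847 (SD over 12 libraries), followed by RPL13A at 3724 ± 664 and RPS18 at 3066 ± 394. RPL13A, RPS18 and the next in order, RPL37A, RPLP0, RPLP1 and RPL13, overlapped within their spread. Reads over untranslated ends are included in the counts, so genes with a short coding sequence are placed high on this scale. The median was 1502 CPM per kilobase for the 52 members of the large subunit and for the 32 of the small subunit.

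The lowest levels belonged to paralogs and to members that share exons with another gene. RPL10L, a paralog known from testis, had 0 counts in all 12 libraries, which does not exclude a level too low for this depth. RPL3L, a paralog of striated muscle, averaged 0.228 CPM. Both failed the filter on low counts, and the other 82 were tested. RPS27L, RPL26L1, RPL39L and RPL22L1 lay between 120 and 179 CPM per kilobase. In some members over 50% of the coding bases lie in exons that the annotation also gives to another gene on the same strand, among them RPL17, RPL36A, RPS10, RPL26, RPL22 and RPS15A, and these held places between 72 and 82 of 84. The other genes at those exons had 0 to 2 counts in every library, and the part of the shared exons in the low levels was not tested. RPL26 (ENSG00000161970, chr17:8377516-8383250 in GRCh38, minus strand), with 71.0% of its coding bases so shared, stood at place 77 with 122 ± 38.8 CPM per kilobase, beside RPL26L1 at 136 ± 12.7. Its level therefore cannot be set against that of other members, while its differences between libraries rest on 376 to 1313 counts. Of the 84 members, 77 have at least 1 named pseudogene, 1144 in all, and how reads matching both were counted is not given in the sources used here.

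**Figure D2:**
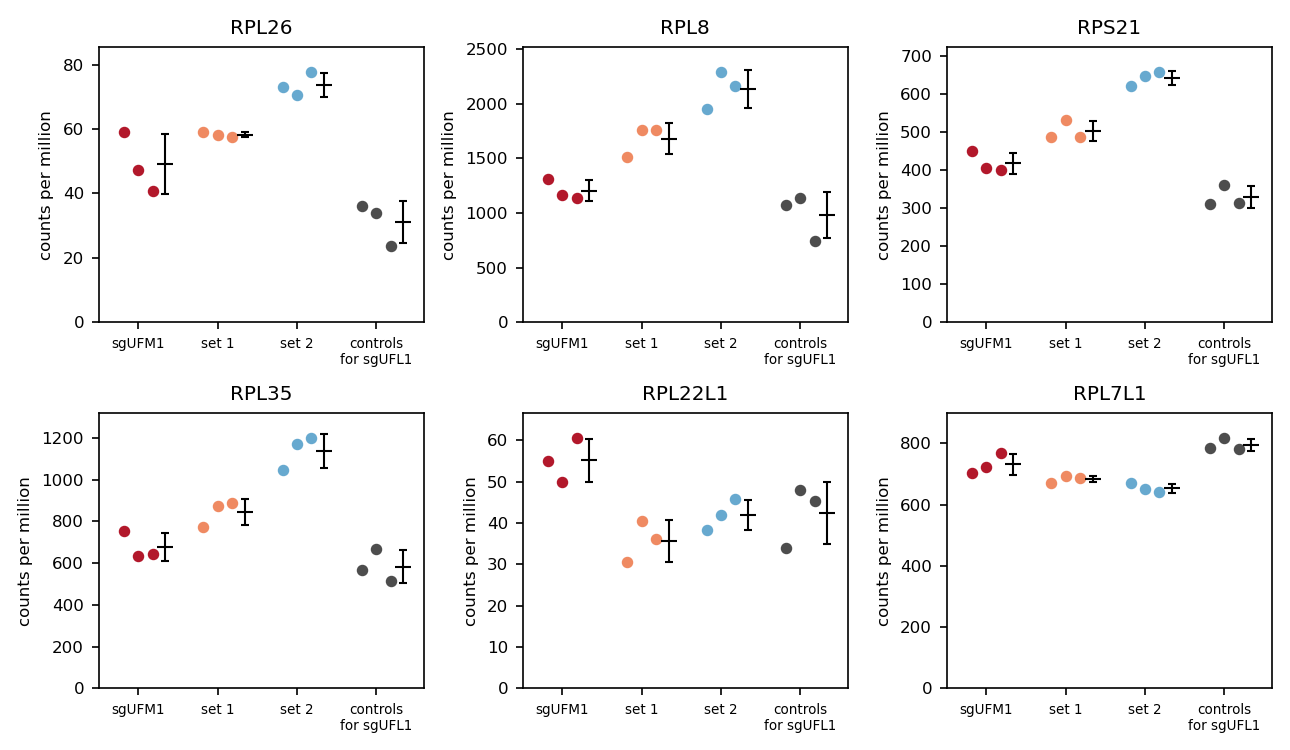
CPM of 6 members in the 12 libraries, with points for libraries and bars for mean and SD of 3. RPL26, RPL8, RPS21 and RPL35 were highest in all 3 set 2 libraries and lower in sgUFM1, while RPL22L1 was highest in all 3 sgUFM1 libraries, at 49.99 to 60.5 CPM.

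In sgUFM1 cells against set 2, ribosomal protein mRNAs were lower over both subunits. Of 82 tested members, 54 fell and 2 rose, or 65.9% and 2.44%, where 18.5% of all 15083 genes tested fell and 19.3% rose at the same adjusted p below 0.05. The median log2 fold change of the members was -0.24, against 0.01 over all genes tested. In the large subunit 35 of 50 fell and 2 rose, with a median of -0.24, and in the small subunit 19 of 32 fell and none rose, with a median of -0.20. When 1 model held all 12 libraries, 29 members fell and none rose, and 3023 of 15821 genes were called in either direction, against 5697 of 15083 in the fit of these 6 libraries.

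RPL8, a large-subunit protein near the peptidyl transferase centre, had 1310, 1162 and 1138 CPM in sgUFM1 libraries, against 1946, 2288 and 2162 CPM in set 2. The groups did not overlap, and the log2 fold change of -0.84 (SE 0.07, adjusted p = 1.81e-08) was the lowest of the 82. RPL35, of the exit tunnel ring, had 752, 634 and 642 CPM in sgUFM1 libraries, against 1046, 1171 and 1200 CPM in set 2, and fell by 0.76 on the log2 scale (SE 0.07, adjusted p = 1.19e-07). RPS21, a small-subunit protein near the mRNA exit, had 451, 406 and 401 CPM in sgUFM1 libraries, against 622, 649.7 and 659 CPM in set 2. It fell by 0.63 on the log2 scale (SE 0.06, adjusted p = 2.47e-07), again with no overlap. RPL26 had 59.1, 47.4 and 40.8 CPM in sgUFM1 libraries, against 73.0, 70.5 and 77.7 CPM in set 2. All 3 sgUFM1 libraries lay below set 2 but spread more widely, and RPL26 fell by 0.60 on the log2 scale (SE 0.10, adjusted p = 0.000103).

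Of the 5 paralogs tested 2 rose and 2 fell. RPL22L1, the paralog of RPL22, had 54.9, 49.99 and 60.5 CPM in sgUFM1 libraries, against 38.3, 41.9 and 45.7 CPM in set 2, and rose by 0.39 on the log2 scale (SE 0.09, adjusted p = 0.00259), the highest of the 82. RPL22 itself fell by 0.27 (SE 0.07, adjusted p = 0.00305). RPL7L1, a relative of RPL7 known from large-subunit assembly, had 703, 721 and 768 CPM in sgUFM1 libraries, against 669, 650.4 and 640 CPM in set 2. The libraries did not overlap, and RPL7L1 rose by 0.15 (SE 0.06, adjusted p = 0.0485), a call that was lost in 13 of 17 other settings, with 0.02 under GC and length offsets (adjusted p = 0.818). RPL26L1, which differs from RPL26 at few residues, fell by 0.21 (SE 0.08, adjusted p = 0.0352), a call lost in 11 of 17 other settings, and RPL39L fell by 0.57 (SE 0.10, adjusted p = 0.000173). The third highest value, 0.10 for RPS27, did not pass (SE 0.07, adjusted p = 0.298).

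By place in the ribosome, the calls are listed beside the 65.9% of all tested members and 18.5% of all genes that fell. No list was tested against the other members. Around the exit tunnel 5 of 8 proteins fell, which were RPL35, RPL38, RPL26, RPL31 and RPL19. RPLP2 and RPLP1 of the P stalk, which recruits elongation factors, fell, while RPLP0 did not pass. Both proteins of the 5S particle, RPL5 and RPL11, which also bind MDM2, fell by 0.24 on the log2 scale. Near the mRNA exit RPS21 and RPS28 fell, and in the decoding core 3 of 4, RPS15, RPS9 and RPS2. In the beak and A site 2 of 5 fell, RPS3 by 0.58 and RPS20 by 0.37, and of 4 neighbours of the peptidyl transferase centre RPL8 and RPL3 fell. RPL10A of the L1 stalk had a log2 fold change of -0.12 and did not pass. No member of these 8 lists rose.

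**Figure D3:**
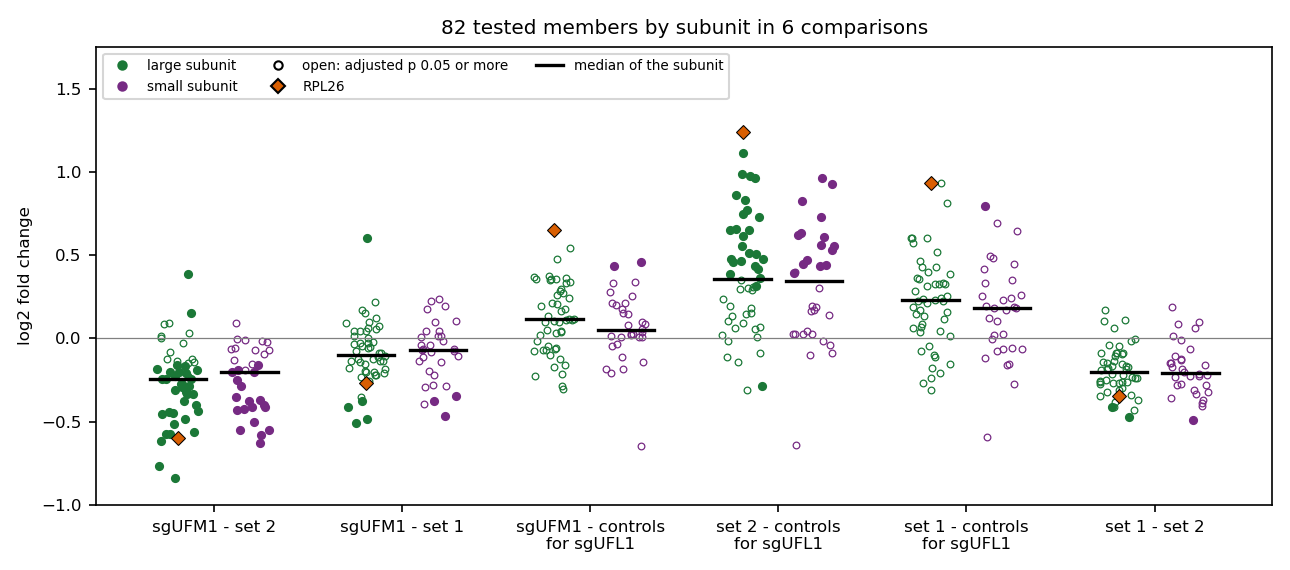
Log2 fold changes of the 82 tested members in 6 comparisons, by subunit, with filled points where the adjusted p was below 0.05, lines at the subunit medians and diamonds for RPL26. The large and small subunit medians had the same sign in each comparison, and RPL26 was the highest member in all 3 comparisons with the controls for sgUFL1.

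Against set 1, which the FPKM table names as its controls, sgUFM1 libraries were lower in few members and higher in the paralog RPL22L1. Of 82 members 7 fell (8.54%) and 1 rose (1.22%), where 5.15% of 14977 genes fell and 4.57% rose, and the median was -0.08. RPL8 was lowest, with 1310, 1162 and 1138 CPM in sgUFM1 libraries against 1514, 1762 and 1761 CPM in set 1, and fell by 0.51 on the log2 scale (SE 0.11, adjusted p = 0.0156) with no overlap. RPL30 fell by 0.49 (SE 0.11, adjusted p = 0.0225) and RPS2 by 0.47 (SE 0.13, adjusted p = 0.0443), and RPS3, RPS28, RPL17 and RPL36 were the other 4 that fell. RPL22L1 again stood highest, with 54.9, 49.99 and 60.5 CPM in sgUFM1 libraries and 30.4, 40.4 and 36.1 CPM in set 1, and rose by 0.60 (SE 0.13, adjusted p = 0.0172). RPS27L (0.23, adjusted p = 0.425) and RPS27 (0.23, adjusted p = 0.136) came next and did not pass, nor did RPS21 at -0.29 (SE 0.09, adjusted p = 0.0607) or RPL26L1 at -0.13 (SE 0.10). RPL26 had 59.1, 47.4 and 40.8 CPM in sgUFM1 libraries and 59.05, 58.1 and 57.4 CPM in set 1. The highest sgUFM1 library lay level with set 1 and the others below it, and its log2 fold change of -0.27 did not pass (SE 0.12, adjusted p = 0.177). Replicate 1 of set 1 stood low in RPLP1 (701 CPM against 1117 and 1118 CPM) and in RPS27L; without it 45 members fell and 2 rose, and 4080 of 15309 genes were called in either direction, against 1456 of 14977 with it. Without any other single library 0 to 4 members fell. Over 17 other settings the call was lost in 9 for RPL8, 7 for RPL30, 12 for RPS2 and 5 for RPL22L1.

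In set 2, which the FPKM table names sgUFL1, ribosomal protein mRNAs were higher than in the controls for sgUFL1. Of 82 members 41 rose and 1 fell, where 17.4% of 15175 genes rose and 18.4% fell, and the median was 0.36 against -0.03 over all genes. In the large subunit 26 of 50 rose and 1 fell, and in the small subunit 15 of 32 rose. RPL26 led, with 73.0, 70.5 and 77.7 CPM in set 2 against 35.95, 33.8 and 23.8 CPM in the controls for sgUFL1. Every set 2 library held more than 1.5 times the highest control, and the log2 fold change was 1.24 (SE 0.15, adjusted p = 0.000416). RPL8 rose by 1.12 (SE 0.15, adjusted p = 0.000684), with 1946, 2288 and 2162 CPM in set 2 against 1071, 1134 and 745 CPM in the controls. RPL36, of the large subunit, rose by 0.99 (SE 0.21, adjusted p = 0.00409), with 465, 517 and 568 CPM in set 2 against 326, 301 and 157 CPM in the controls. RPS21 had 622, 649.7 and 659 CPM in set 2 against 313, 362.5 and 314 CPM in the controls, and rose by 0.96 (SE 0.12, adjusted p = 0.000435). In these 4 members set 2 and the controls did not overlap.

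RPL7L1 was the member that fell, by 0.28 on the log2 scale (SE 0.10, adjusted p = 0.0469), and it did not pass in 13 of 17 other settings, with -0.04 under GC and length offsets (adjusted p = 0.846). The values of RPS10 (-0.64, adjusted p = 0.103) and RPL36A (-0.31, adjusted p = 0.185) were lower but did not pass and rest on few counts, 1.89 to 6.48 CPM and 6.01 to 9.96 CPM, and RPL26L1 stood at 0.14 (SE 0.13, adjusted p = 0.439). Around the exit tunnel 4 of 8 rose, RPL26, RPL35, RPL38 and RPL31, and in the decoding core 3 of 4, RPS9, RPS2 and RPS15. Near the mRNA exit RPS21 and RPS28 rose, in the beak and A site RPS3 and RPS20 of 5, and near the peptidyl transferase centre RPL8 and RPL3 of 4. Of the P stalk RPLP1 alone passed, of the 5S particle neither did, and RPL10A did not. The controls for sgUFL1 were the least even group. Their highest library exceeded the lowest by a median of 1.27 times over the 82 members, against 1.11 in sgUFM1, 1.15 in set 1 and 1.12 in set 2, and replicate 3 held 199 CPM of RPL23A where replicates 1 and 2 held 458 and 443 CPM. Left out in turn, the 6 libraries gave 22 to 54 rises, 37 without that replicate, 22 without replicate 3 of set 2 and 23 without replicate 2 of set 2, where 2486 to 6985 genes in all were called in either direction.

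**Figure D4:**
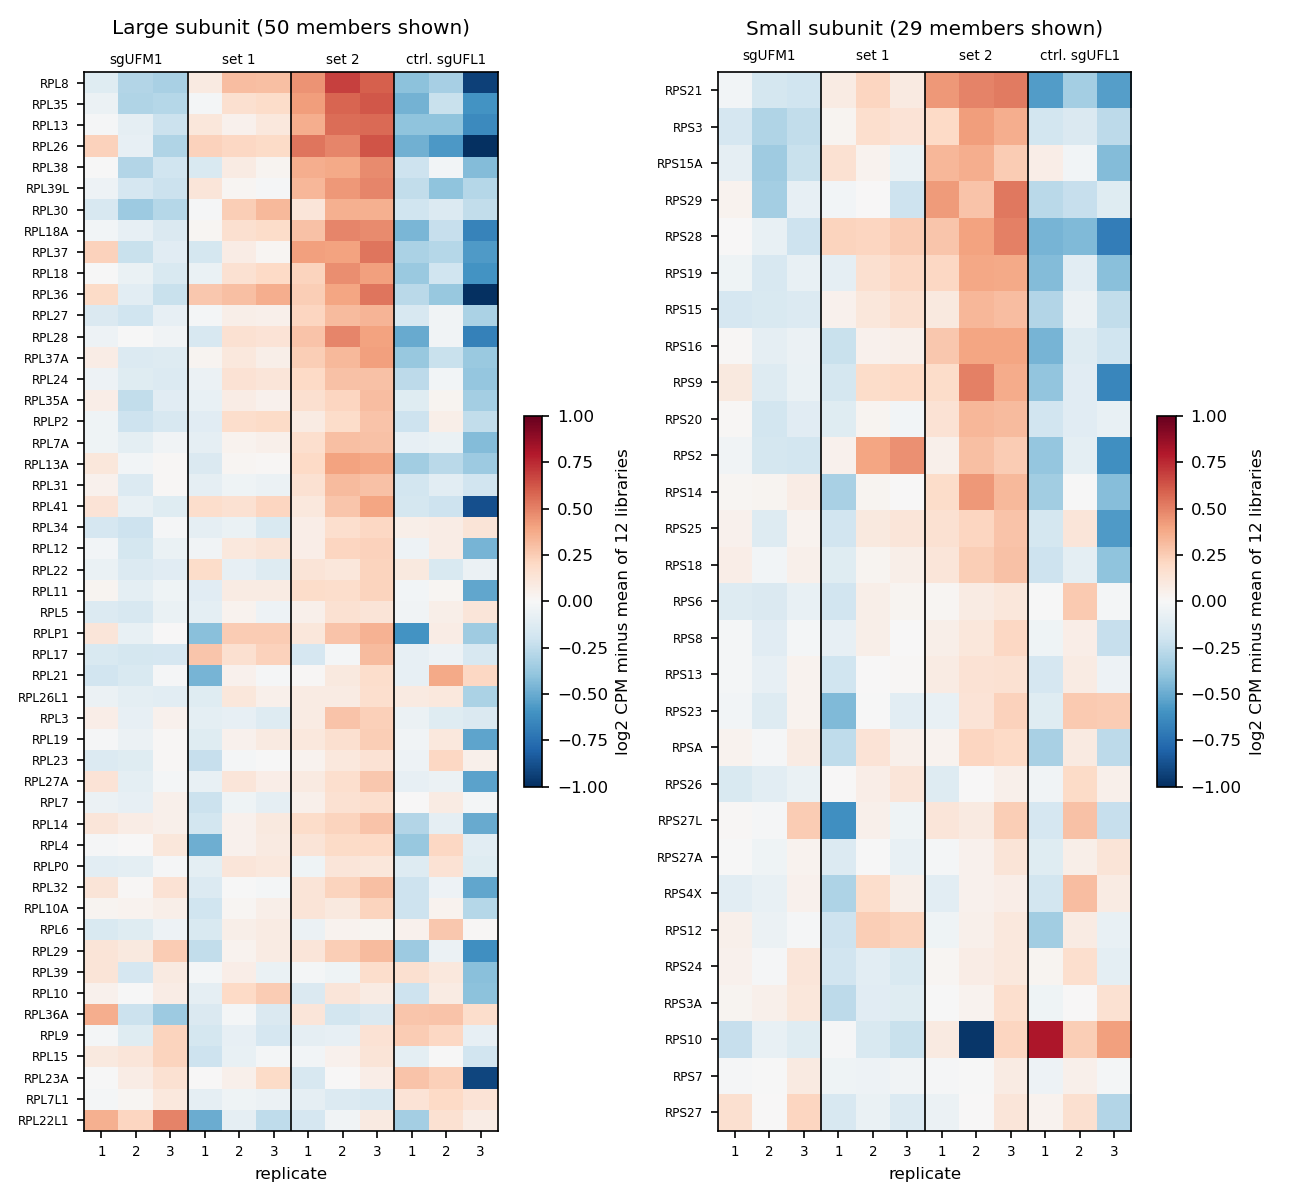
Log2 CPM of tested members in each library minus its mean over the 12 libraries, on a colour scale from -1 to 1, with members ordered in each subunit by the log2 fold change of sgUFM1 against set 2. Set 2 libraries lay above the mean for 64, 74 and 79 of the 82 tested members, of which a few are not drawn, and replicates 1 and 3 of the controls for sgUFL1 for 14 each.

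In the remaining pairs of groups few members passed in the main fits. In set 1, named sgUFL1 in the count table, against the controls for sgUFL1, 2 members rose (2.44%) and none fell, where 1.08% of 14996 genes rose and 0.02% fell. The median of the members was nonetheless 0.21, against -0.0078 over all genes tested. The 2 that rose were RPS28, a small-subunit protein near the mRNA exit, by 0.80 (SE 0.12, adjusted p = 0.0487) and RPL26 by 0.94 (SE 0.16, adjusted p = 0.0487). RPL26 had 59.05, 58.1 and 57.4 CPM in set 1 against 35.95, 33.8 and 23.8 CPM in these controls, with no overlap. RPL36 (0.93, adjusted p = 0.0698), RPL8 (0.81, adjusted p = 0.058) and RPS21 (0.65, adjusted p = 0.0506) lay near the threshold, the lowest values were -0.59 for RPS10, -0.31 for RPL36A and -0.27 for RPS23, and RPL26L1 stood at 0.08. DESeq2 called 16 members higher and 0 lower, and without replicate 2 of the controls edgeR called 23 higher. Over all genes 165 of 14996 were called in either direction by edgeR, 1697 of 11253 by DESeq2 and 2419 of 15453 without that replicate. RLE scaling, the replicate block, GC and length offsets and limma on log2 FPKM each called 0 genes, so RPS28 did not pass there either. RPL26 did not pass in 11 of 17 other settings, offsets for GC content and length among them (0.92, adjusted p = 0.199).

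sgUFM1 against the controls for sgUFL1 gave 3 members that rose (3.66%) and none that fell, where 5.57% of 15035 genes rose and 4.43% fell. The median of the members was 0.10, against -0.0045 over all genes tested. RPL26 stood highest, with 59.1, 47.4 and 40.8 CPM in sgUFM1 libraries against 35.95, 33.8 and 23.8 CPM in the controls and a log2 fold change of 0.65 (SE 0.17, adjusted p = 0.0339). RPS28 rose by 0.44 (SE 0.11, adjusted p = 0.0313). RPL36 (0.54), RPL29 (0.48), RPS21 (0.34), RPL8 (0.28), RPL26L1 (-0.07), RPL36A (-0.29), RPL21 (-0.30) and RPS10 (-0.65) did not pass. Without replicate 2 of the controls 33 members rose and 1 fell, and 4196 of 15492 genes were called in either direction, against 1503 of 15035 with it. Without any other single library no member passed, RPL26 included.

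In set 1 against set 2 none rose and 3 fell (3.66%), where 0.705% of 15033 genes rose and 1.49% fell. The median of the members was -0.21, against 0.0068 over all genes tested. The 3 that fell were RPS29 (-0.49, SE 0.09, adjusted p = 0.0277), RPL37 (-0.47, SE 0.10, adjusted p = 0.042) and RPL13 (-0.41, SE 0.09, adjusted p = 0.0429). RPL35 (-0.43), RPS21 (-0.36), RPL8 (-0.34), RPL26 (-0.34, adjusted p = 0.0519) and RPL26L1 (-0.09) did not pass, and values of 0.17 for RPL17 and 0.11 for RPL23A were among the highest. Deviations of same-numbered libraries of these groups were weakly correlated (0.267, 0.128 and 0.104), and replicate 3 of set 1 went best with replicate 2 of set 2. A fit with the replicate number as a block is given too, and by it 31 members fell, none rose, and RPL26 fell by 0.34 (adjusted p = 0.0309). Without replicate 1 of set 1, and with no block, 25 fell and 3 rose. Over all genes 330 of 15033 were called in either direction, 832 of 15033 with the block and 2564 of 15341 without that library. RPS29 lost its call in 7 of 17 other settings and RPL37 in 8.

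The difference of differences, sgUFM1 minus its controls less sgUFL1 minus its controls, is the same quantity under both namings. It was lower than 0 for 39 members (47.6%) and higher for 2 (2.44%), where 17.9% of 15821 genes were lower and 17% higher, with a median of -0.46. RPL8 was lowest (-1.64, SE 0.21, adjusted p = 0.000146), followed by RPL26 (-1.53, SE 0.21, adjusted p = 0.000181) and RPL36 (-1.37, SE 0.28, adjusted p = 0.00207). RPL22L1 (0.60, SE 0.22, adjusted p = 0.0454) and RPL7L1 (0.34, SE 0.12, adjusted p = 0.037) were the 2 above 0, and neither passed with GC and length offsets, where 26 members were lower and none higher and 1287 of 15821 genes were called in either direction, against 5511 without offsets. Over 22 other settings RPL22L1 lost its call in 14 and RPL7L1 in 10.

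Large and small subunits were also compared within each library, as the ratio of summed small-subunit to summed large-subunit level on the FPKM scale, that is, counts per kilobase of deposited gene length. The ratio was 0.744, 0.747 and 0.752 in sgUFM1 libraries, 0.728, 0.762 and 0.749 in set 1, 0.7195, 0.724 and 0.719 in set 2, and 0.712, 0.756 and 0.801 in the controls for sgUFL1. sgUFM1 lay above set 2 by 0.0266 with no overlap (means of 0.747 ± 0.00382 and 0.721 ± 0.00249, SD, n = 3 each, exact permutation p = 0.1, adjusted over 6 pairs 0.3). Set 1 lay above set 2 by 0.0255 with no overlap (exact permutation p = 0.1, adjusted 0.3), although the difference was -0.007 when medians over members took the place of sums. The lack of overlap held only for sums on the deposited length, since both pairs overlapped with coding length in its place (0.574 to 0.595 in sgUFM1 libraries, 0.567 to 0.588 in set 1 and 0.570 to 0.579 in set 2) and with medians. The other 4 pairs overlapped. The controls for sgUFL1 spread over most of the range, with replicate 3 highest.

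RPL26 was followed in the same way as a share of the summed large-subunit level, which removes a change common to the subunit. The share was 0.195%, 0.167% and 0.138% in sgUFM1 libraries, 0.2065%, 0.180% and 0.177% in set 1, 0.2165%, 0.191% and 0.206% in set 2, and 0.1355%, 0.115% and 0.103% in the controls for sgUFL1. The controls for sgUFL1 lay below every other library. The difference from them was 0.049 points for sgUFM1, 0.0703 for set 1 and 0.0868 for set 2 (exact permutation p = 0.1 each, adjusted over 6 pairs 0.2). On this scale no other pair was free of overlap. With coding length in place of the deposited length, sgUFM1 also lay below set 2 with no overlap (0.1241 to 0.1712% against 0.1716 to 0.194%). The same held for RPL26 as a percentage of the large-subunit median (10.93 to 13.73% against 14.56 to 15.91%). Against the controls for sgUFL1, RPL26 stood first of 82 members in all 3 comparisons, with log2 fold changes of 0.65, 0.94 and 1.24 for sgUFM1, set 1 and set 2 beside medians of 0.11, 0.23 and 0.35 over the 49 other large-subunit members. Those comparisons share their control libraries. In sgUFM1 against set 2 RPL26 was the fifth lowest, at -0.60 beside a median of -0.24, and in sgUFM1 against set 1 it was at place 13 from the lowest, at -0.27 beside -0.09. No p is given for RPL26 against the rest, since genes are not replicates.

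**Figure D5:**
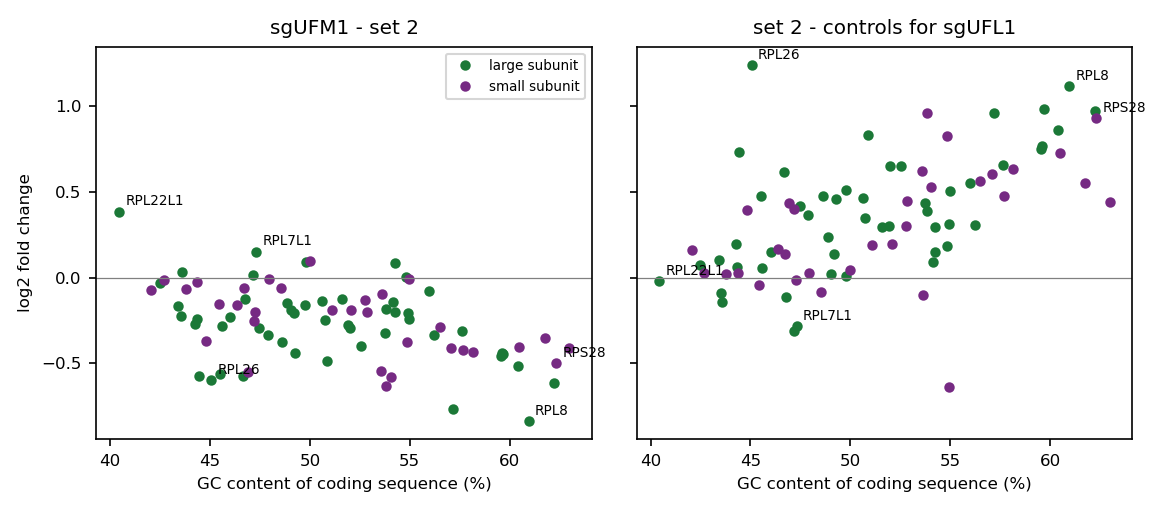
Log2 fold change of the 82 tested members against the GC content of their coding sequence (percent), for sgUFM1 against set 2 (left) and set 2 against the controls for sgUFL1 (right), coloured by subunit. Members with more GC lay lower on the left and higher on the right (Pearson r of -0.45 and 0.55). RPL26, with 45.1% GC, was the highest of the 82 on the right, while on the left members of like GC such as RPL39L lay near it.

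The size of the differences varied with base composition among the members. In sgUFM1 against set 2 the 18 members with at least 55% GC in their coding sequence had a median log2 fold change of -0.43 and the 23 with less than 47% had -0.17, and in set 2 against the controls for sgUFL1 the medians were 0.69 and 0.10. Across the 82 members, which share libraries and differ in length and depth, the Pearson correlation of log2 fold change with GC content was -0.45 in the first comparison and 0.55 in the second, and Spearman's rho was -0.40 and 0.59. Libraries differed in the same property over all genes, since the count-weighted mean GC content lay at 49.7 to 50.2% for sgUFM1 libraries, 50.2 to 50.5% for those of set 1, 50.3 to 50.9% for those of set 2 and 48.2 to 49.3% for the controls for sgUFL1. With offsets for GC content and length, 52 members fell and 3 rose in sgUFM1 against set 2, where 4955 of 15083 genes were called in either direction, against 5697 without offsets. In set 2 against the controls for sgUFL1, 29 members rose and none fell with offsets, where 1144 of 15175 genes were called, against 5438 without. RPL26 stayed first in set 2 against the controls for sgUFL1 at 1.22 (adjusted p = 0.000924). Mitochondrially encoded genes took 3.12 to 3.73% of counts in sgUFM1 libraries, 3.42 to 3.89% in those of set 1, 3.68 to 4.003% in those of set 2 and 4.51 to 4.76% in the controls for sgUFL1, and the part of either property in the other results was not tested.

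Ribosomal proteins that the name rule leaves out were read beside the members. FAU, whose product is cleaved into a ubiquitin-like peptide and eS30, had 245, 217 and 210 CPM in sgUFM1 libraries against 281, 323 and 322 CPM in set 2, with no overlap, and fell by 0.47 on the log2 scale (SE 0.07, adjusted p = 4.53e-05). With GC and length offsets FAU fell by 0.18 (adjusted p = 0.00314). RPL36AL fell by 0.23 and RACK1, a scaffold on the small subunit, by 0.26. In set 2 against the controls for sgUFL1, FAU rose by 0.56 (SE 0.12, adjusted p = 0.00414) and RPL36AL by 0.57 (SE 0.15, adjusted p = 0.0128), and RACK1 (0.27) did not pass. With the offsets FAU had a value of -0.04 there and did not pass (adjusted p = 0.838), while RPL36AL rose by 0.73 (adjusted p = 0.027). Of 18 other genes known for TOP mRNAs 17 were tested, EEF1G being at 0 counts. In sgUFM1 against set 2, 6 of them fell and 1 rose, with a median of -0.06, where 18.5% of all genes fell and 19.3% rose. The 6 were the elongation factor genes EEF2 (-0.36, adjusted p = 8.31e-05), EEF1D (-0.38, adjusted p = 0.000223) and EEF1B2 (-0.22), TPT1, EIF3H and GAS5, and the gene that rose was NAP1L1, a histone chaperone (0.16, adjusted p = 0.0462). EEF1A1 (-0.06), NPM1 (-0.01) and PABPC1 (0.02) did not pass. These calls depended on the offsets, with which 10 of the 17 fell and none rose, with a median of -0.14. Over all genes 4955 of 15083 were called in either direction with the offsets. NAP1L1 then turned its direction and fell by 0.20 (adjusted p = 0.0141), EEF1A1 (-0.15, adjusted p = 0.0116) and NPM1 (-0.13, adjusted p = 0.0249) fell, and EEF1D (-0.11, adjusted p = 0.0774) did not pass. In set 2 against the controls for sgUFL1, 2 of the 17 rose and 4 fell, where 17.4% of all genes rose and 18.4% fell. Their median was -0.08, where the median of the ribosomal protein genes was 0.36. With the offsets 1 rose and 1 fell, with a median of 0.05, where 1144 of 15175 genes were called in either direction.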

How the data were processed

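Per the labels' protocols RNA was extracted with TRIzol and made into Illumina libraries, with no strand stated. The authors deposited whole-number counts for each gene and, in another table, FPKM values of the same 12 libraries. The submitters' processing notes name fastp 0.20.1, STAR 2.7.7a, featureCounts 2.0.0 and GRCh38, without their settings. GENCODE release 29 held each of the 58735 identifiers at the same position. Each FPKM column was matched to the count column it is proportional to (12320 genes), which showed 6 columns under the same name and 6 under another.

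The quasi-likelihood test of edgeR 4.0.16 (R 4.3.3) was run on the counts of all genes that passed filterByExpr, after TMM scaling, and p-values were adjusted by Benjamini-Hochberg with a threshold of 0.05, 6 libraries to a comparison and 12 for the interaction. The procedure was tested on simulated data. Values per library were compared by exact two-sided permutation tests (scipy 1.17.1). Alternatives were RLE scaling, other filters, DESeq2 1.42.0, limma 3.58.1 on log2 FPKM, offsets for GC content and gene length (lowess, span 0.3), a replicate block and each library left out. The rule for pairing by replicate number asked that all 3 same-numbered correlations of deviations exceed 0.1. It was met by set 1 with set 2 (0.267, 0.128 and 0.104) and by no other pair of groups. The main fits had no block in any comparison, that pair included, and the block is given as an alternative. Named genes are RPL26, RPL26L1, RPL8 and RPS21, the 3 highest and 3 lowest members of each comparison, the paralogs, members of role lists by smallest p, UFL1 and UFM1. The members and lists were chosen with earlier results of these data known. Depth limits precision for members with few counts such as RPS10 at 34 to 103 counts. The results of a few genes are not reported here.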

Additional observations from a re-analysis of the deposited data

Results flagged for a closer look

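The difference of the guides' effects was tested as an interaction over the 12 libraries in edgeR, and members whose effects differed between the guides are given here because that test passed. The contrast includes the difference between the control groups. It was below 0 for 39 of 82 members and above 0 for 2, where 17.9% of 15821 genes were below 0 and 17% above. The values were -1.64 for RPL8, -1.53 for RPL26, -1.37 for RPL36 and -1.27 for RPS21 (SE 0.14, adjusted p = 8.21e-05), and 0.34 for RPL7L1 and 0.60 for RPL22L1. RPL7L1 and RPL22L1 did not pass with GC and length offsets, and lost their calls in 10 and 14 of 22 other settings. Groups of 3 libraries are too small for a check of single outlying libraries.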

How the results depend on the processing

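Without single libraries there were 40 to 65 falls in sgUFM1 against set 2, 22 to 54 rises in set 2 against the controls for sgUFL1 and 30 to 52 members below 0 in the interaction, while the other counts depended on single libraries. Leaving out 1 library at a time gave 0 to 33 rises and 0 to 1 falls in sgUFM1 against the controls for sgUFL1, 1 to 2 rises in sgUFM1 against set 2, 0 to 2 rises and 0 to 45 falls in sgUFM1 against set 1, 0 to 23 rises in set 1 against the controls for sgUFL1, 0 to 1 falls in set 2 against those controls, 0 to 3 rises and 0 to 25 falls in set 1 against set 2, and 0 to 2 members above 0 in the interaction. Over all genes, these fits called 275 to 4196 for sgUFM1 against the controls for sgUFL1, and 4163 to 6525 against set 2. They called 118 to 4080 for sgUFM1 against set 1, and 0 to 2419 for set 1 against the controls for sgUFL1. Set 2 against those controls gave 2486 to 6985, set 1 against set 2 gave 13 to 2564, and the interaction 4061 to 6321. 1 model over all 12 libraries gave 7 rises in sgUFM1 against the controls for sgUFL1, 0 rises and 29 falls against set 2, 2 falls against set 1, 22 rises in set 1 against the controls for sgUFL1 and 1 fall in set 1 against set 2. In this order it called 2565, 3023, 901, 3463 and 317 of 15821 genes in either direction. DESeq2 gave 8 rises in sgUFM1 and 16 in set 1 against the controls for sgUFL1, and 14 falls in set 1 against set 2. Over all genes DESeq2 called 1956 of 14156, 1697 of 11253 and 685 of 14294 in this order. With no filter there were 11 and 17 rises and 19 falls in the same order, 1 rise in sgUFM1 against set 2, 0 falls in set 2 against the controls for sgUFL1 and 1 member above 0 in the interaction. The calls over all genes were then 2315 of 29713, 1921 of 29654, 1116 of 30005, 5456 of 29994, 5412 of 30071 and 5320 of 32805. A filter of 1 CPM in 3 libraries gave 4 rises in set 1 against the controls for sgUFL1 and 5 falls in set 1 against set 2, where 306 of 13939 and 345 of 13991 genes were called. RLE scaling gave 1 rise in sgUFM1 against set 2, 0 rises in set 1 and 0 falls in set 2 against the controls for sgUFL1. There 5659 of 15083, 0 of 14996 and 5362 of 15175 genes were called in either direction. GC and length offsets gave 1 fall in sgUFM1, 0 rises in set 1 and 0 falls in set 2 against the controls for sgUFL1, 5 falls in set 1 against set 2 and 0 members above 0 in the interaction. Over all genes they called 1305 of 15035, 0 of 14996, 1144 of 15175, 401 of 15033 and 1287 of 15821. With the GC of the coding sequence, chosen after the data were seen, set 1 had 0 rises against the controls for sgUFL1. Set 2 had 31 rises and 0 falls against them. Set 1 against set 2 then had 8 falls, and the interaction 0 members above 0. In these fits 0 of 14996, 1552 of 15175, 446 of 15033 and 1797 of 15821 genes were called. limma on log2 FPKM with a pseudocount of 0.5 or 0.1 gave 0 rises in sgUFM1 and in set 1 and 0 falls in set 2 against the controls for sgUFL1, 1 rise in sgUFM1 against set 2, 0 rises and 1 fall in sgUFM1 against set 1, 0 falls in set 1 against set 2 and 1 member above 0 in the interaction. With 0.5 the calls over all genes in this order were 442, 0, 4441, 4419, 797, 35 and 5090. With 0.1 they were 400, 0, 4389, 4389, 768, 28 and 5081. The cause of these changes was not tested.

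Set 1 with set 2 was the only pair of groups to meet the rule for pairing by replicate number, and its correlations were weak. Set 1 with the controls for sgUFL1 had 0.515 and 0.562 for replicates 1 and 2 but -0.368 for replicate 3. The replicate block gave 31 falls in set 1 against set 2, 1 rise in sgUFM1 against set 2, 2 falls in sgUFM1 against set 1 and 0 rises in set 1 against the controls for sgUFL1, and moved no other count of members by over 1.5 times. In these comparisons it called 832 of 15033, 4906 of 15083, 978 of 14977 and 0 of 14996 genes in either direction. The block with GC and length offsets, added after the data were seen, gave 24, 4, 2 and 0 in the same order, 6 rises in sgUFM1 against the controls for sgUFL1 and 0 members above 0 in the interaction. Over all genes it called 584, 4802, 902, 1, 1268 and 1490 in this order. The ratio of small to large subunit changed sign where medians took the place of sums in set 1 against set 2 (-0.007). Without single libraries it ranged from -0.031 to 0.0135 in sgUFM1 and from -0.0321 to 0.0124 in set 1 against the controls for sgUFL1, both above 0 without replicate 3 of those controls, and from -0.00827 to 0.00903 in sgUFM1 against set 1. Direction under the settings tried was followed for RPL26, RPL26L1, RPL8, RPS21 and the 3 highest and 3 lowest members of each comparison. None of these that passed its test, nor RPL26 in any comparison, changed direction.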
